A study of Homo sapiens with 9 samples.

Results

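The unfolded protein response (UPR) was followed through 10 genes that encode its sensors, the proteases that release its membrane-bound factors, and its transcription factors. These were EIF2AK3, ERN1, XBP1, ATF6, ATF6B, MBTPS1, MBTPS2, CREB3, CREB3L2 and NFE2L2. They were picked by symbol, at a time when earlier results of these data were known. All 10 were found among the 61544 genes counted, and all 10 were among the 18653 genes with enough reads to be tested, with 687 to 11000 reads in a library. The cells were H1975, an established human lung adenocarcinoma line of epithelial type. Every library came from cells given si78, an siRNA whose target lies in the 3′ UTR of HSPA5, the gene of the chaperone GRP78, and libraries without si78 were not used here. After 24 h of si78 the cells received a plasmid for 48 h. The vector group received empty pcDNA3, the WT group received F-78(WT), GRP78 with a FLAG tag, and the NLS Mut group received F-78(NLS Mut), the same tagged protein with 3 lysines of its nuclear localization signal (NLS) changed to alanine. The share of cells that took up the plasmid was not measured here. Each group had 3 RNA-Seq libraries, and no source says whether they were separate cultures, so p-values measure the spread between libraries, which may be technical.

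The UPR starts at the membrane of the endoplasmic reticulum (ER). PERK and IRE1α are kinases that span this membrane and ATF6 is a transcription factor held in it, and GRP78 is known to bind their lumenal parts when the ER is not stressed. Activation of the sensors takes place mostly on the protein, by phosphorylation, by cleavage in the Golgi or, for XBP1, by splicing of its mRNA. The read counts measure mRNA per gene and give neither protein nor its activation. In bulk RNA, a change in the number of transcribing cells and a change in the RNA per cell cannot be told apart.

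HSPA5 itself was checked first. Its level, in CPM, the count of a gene scaled to a common library size after TMM normalization, was 359, 383 and 391 in the vector libraries, 5031, 5814 and 6145 in the WT libraries and 4962, 5156 and 4765 in the NLS Mut libraries. HSPA5 was 15.0-fold higher in WT than in vector (95% interval 13.8 to 16.3) and 13.1-fold higher in NLS Mut (12.1 to 14.2), and these gene counts do not separate plasmid from endogenous transcripts. Between the plasmids it was 1.14-fold higher in WT (95% interval 1.06 to 1.23), or 0.19 on the log2 scale (adjusted p = 0.079). This difference was called in 5 of 9 other alternatives, DESeq2 among them, and in 3 of 9 fits without 1 library. Its part in the differences between WT and NLS Mut was not tested. The libraries held 17671055 to 27476298 counted reads. All 6 epithelial markers listed were present, with a summed level of 4357 to 5107 CPM, NKX2-1 was at 21.5 to 31.6 CPM while SFTPC did not pass 0.222 CPM, and CD3E, CD68 and DCN, which mark T cells, macrophages and fibroblasts, had no reads in any library. PTPRC did not pass 0.275 CPM, while PECAM1, an endothelial marker, was at 2.96 to 5.74 CPM and PDGFRB, a fibroblast marker, at 6.90 to 11.7 CPM. The ranges of some marker sums did not overlap between groups, and these differences were not tested. Of all genes tested, 13.1% to 18.1% had ranges that did not overlap, depending on the comparison. The 6 epithelial markers summed to 4771 to 4846 CPM in WT and 4357 to 4557 in NLS Mut, with vector at 4448 to 5107. The 4 lineage markers (NKX2-1, NAPSA, SFTPB and SFTPC) summed to 23.8 to 26.6 CPM in NLS Mut, below the 29.2 to 32.9 in vector and 29.9 to 34.2 in WT, and the 4 fibroblast markers to 9.40 to 11.8 in WT, above the 6.90 to 8.57 in NLS Mut but overlapping the 7.18 to 9.65 in vector. The lineage sum was mostly NKX2-1 and the fibroblast sum nearly all PDGFRB, since no other fibroblast marker listed passed 0.462 CPM. The part of these markers in the differences between WT and NLS Mut was not tested. The vector libraries differed among themselves with GC content: per 10 points of GC, the log2 level changed by -0.04 in vector replicate 1, against 0.10 and 0.11 in vector replicates 2 and 3, and by -0.08 to 0.03 in the other 6 libraries.

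No member of the UPR set passed the test in any of the 3 comparisons. In edgeR's quasi-likelihood test over all 18653 genes, with an adjusted p (Benjamini-Hochberg) of 0.05 as the threshold, 0 of 10 members were called in WT against vector, where 0.558% of all genes were called. The count was also 0 of 10 in NLS Mut against vector, where 0.793% were called, and 0 of 10 between WT and NLS Mut, where 0.504% were called. DESeq2 called 0 of 10 in each as well. At an unadjusted p under 0.05 the counts were 1, 2 and 2 of 10, beside 11.7%, 12.2% and 11.6% of all genes.

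**Figure D1:**
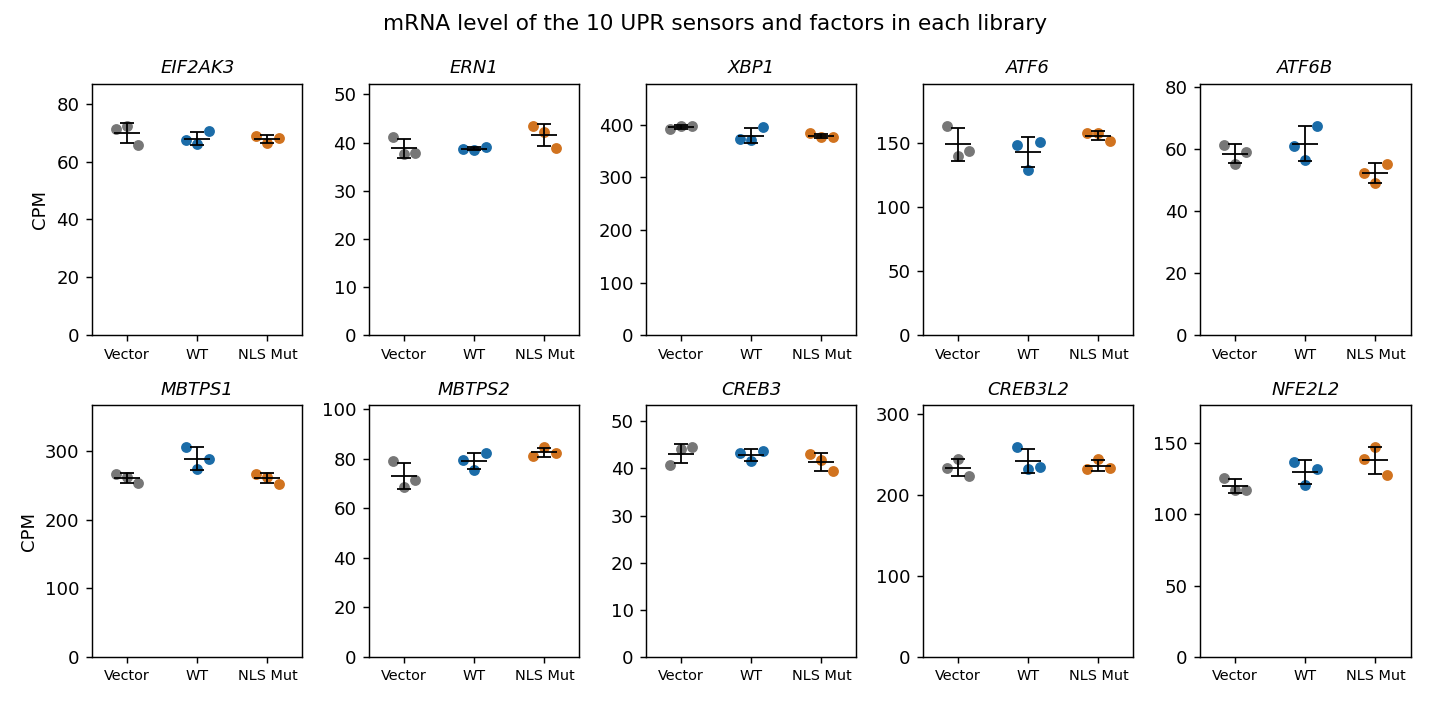
Level of each of the 10 genes in CPM (vertical axes, from 0, with a scale of its own for each gene) in the 3 libraries of the vector, WT and NLS Mut groups, shown as points with the mean and SD over n = 3. From the lowest to the highest of the 9 libraries the level spanned 1.08-fold for XBP1 and 1.38-fold for ATF6B, the narrowest and the widest of the 10.

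The levels of the 10 mRNAs lay far apart. Per kilobase of exon, which allows genes to be compared, XBP1 was the most abundant with a mean of 127 CPM per kb over the 9 libraries (SD 3.66). It was followed by CREB3L2 with 27.0 CPM per kb, MBTPS1 with 26.4, CREB3 with 22.3, NFE2L2 with 21.6, ATF6 with 18.9, ATF6B with 15.9, EIF2AK3 with 12.6 and MBTPS2 with 8.77. ERN1 was the lowest with 3.66 CPM per kb (SD 0.192). Some neighbours in this order could not be told apart. CREB3L2 lay above MBTPS1 in only 6 of 9 libraries and CREB3 above NFE2L2 in 5 of 9. NFE2L2 lay above ATF6, and ATF6 above ATF6B, in 9 of 9 libraries, but the ranges of these neighbours over the libraries overlapped. All other neighbours had ranges that did not overlap. The exonic length was that of GENCODE release 29, with all transcripts merged, so a gene that uses a short transcript is understated on this scale.

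**Figure D2:**
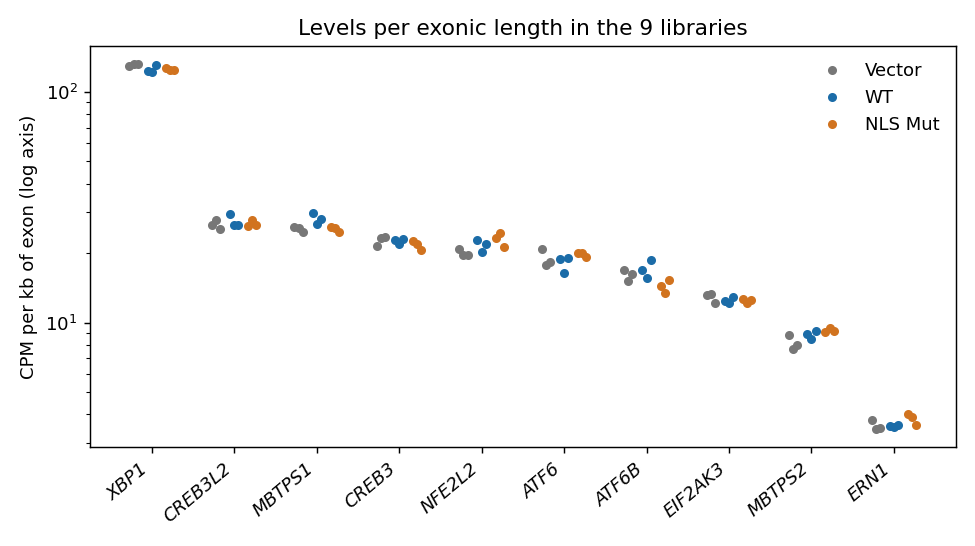
Level per exonic length (CPM per kb of exon, log axis) of the 10 genes, ordered by their mean over 9 libraries, with 1 point per library coloured by group (Vector, WT, NLS Mut). XBP1 lies above all others at 127 CPM per kb and ERN1 below all others at 3.66, and within a gene the groups lie close together.

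The sensor kinases had overlapping levels in the 3 groups. EIF2AK3 (ENSG00000172071.15, chr2:88556741-88627576, minus strand) encodes PERK, which phosphorylates eIF2α and lowers translation. It had 71.3, 72.5 and 65.9 CPM in vector, 67.3, 66.1 and 70.4 in WT, and 69.0, 66.4 and 68.3 in NLS Mut. The ranges of all 3 groups overlapped, and the log2 fold change against vector was -0.04 for both plasmids, with 95% intervals of -0.19 to 0.11. ERN1 (ENSG00000178607.17, chr17:64039142-64130819, minus strand) encodes IRE1α, a kinase whose RNase domain cuts XBP1 mRNA. It had 41.1, 37.6 and 37.8 CPM in vector, 38.7, 38.5 and 39.0 in WT, and 43.5, 42.3 and 39.0 in NLS Mut. Its highest library was an NLS Mut library, but vector replicate 1 lay above the lowest NLS Mut library. ERN1 differed by 0.10 on the log2 scale in NLS Mut against vector (SE 0.09, adjusted p = 0.70) and by -0.10 between WT and NLS Mut (SE 0.09, adjusted p = 0.71).

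XBP1 (ENSG00000100219.17, chr22:28794555-28800597, minus strand) encodes a basic leucine zipper factor that drives genes of ER folding, degradation and secretion once IRE1α has cut an intron out of its mRNA. A stretch by which annotated XBP1 transcripts differ is shown, because the deposited counts cannot follow this splicing. It was taken from GENCODE transcript XBP1-201. The 26 bases that transcript XBP1-207 lacks are in capitals, with 2 bases of exon on either side. For XBP1-202 the annotation places the 26 missing bases at chr22:28796122-28796147, so the exact ends of the IRE1α cut cannot be read from it. The capitals lie at chr22:28796124-28796149 (GRCh38, minus strand).
XBP1-201: agCACTCAGACTACGTGCACCTCTGCAGca
A count per gene adds transcripts with and without these 26 bases, so splicing of XBP1 was not measured here. The total was 392, 398 and 399 CPM in vector, 373, 371 and 395 in WT, and 384, 377 and 378 in NLS Mut. The 3 NLS Mut libraries all lay below the 3 vector libraries, while WT and vector overlapped. The log2 fold change against vector was -0.06 for both WT (SE 0.05, adjusted p = 0.71) and NLS Mut (SE 0.05, adjusted p = 0.68), and the interval between WT and NLS Mut ran from -0.10 to 0.11.

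ATF6 (ENSG00000118217.7, chr1:161766294-161964070, plus strand) encodes the membrane-bound factor that moves to the Golgi under stress, is cut there, and then induces ER chaperones. It had 164, 140 and 144 CPM in vector, 149, 129 and 151 in WT, and 158, 158 and 152 in NLS Mut. The vector libraries spanned the values of NLS Mut, whereas all 3 WT libraries lay below all 3 NLS Mut libraries. That last difference was -0.13 on the log2 scale (SE 0.07, 95% interval -0.27 to 0.01, adjusted p = 0.50). ATF6B (ENSG00000213676.13, chr6:32115264-32128253, minus strand) encodes a related factor, cut in the same way, that is reported as a weaker activator. It had 61.3, 55.1 and 59.1 CPM in vector, 61.2, 56.7 and 67.6 in WT, and 52.5, 49.0 and 55.3 in NLS Mut. The NLS Mut libraries were the lowest and did not overlap with WT, but the highest of them was above the lowest vector library. ATF6B had the widest difference between the plasmids among the members, 0.24 on the log2 scale (SE 0.08, 95% interval 0.07 to 0.41), which missed the threshold after adjustment (adjusted p = 0.20).

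Against vector, ATF6B differed by 0.08 in WT (adjusted p = 0.77) and by -0.16 in NLS Mut (adjusted p = 0.43). The transcript of ATF6B is rich in GC (57.7%). With a correction for GC content and length, the log2 values against vector became 0.19 and -0.06, while that between WT and NLS Mut stayed at 0.25 (adjusted p = 0.11). ATF6B shares 71 exonic bases with TNXB on the same strand, where reads are ambiguous.

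The proteases that cut ATF6 gave the other small differences. MBTPS1 (ENSG00000140943.18, chr16:84053761-84116906, minus strand) encodes the site-1 protease, which makes the first cut in ATF6, SREBP and OASIS factors in the Golgi. It had 267, 263 and 254 CPM in vector, 306, 274 and 289 in WT, and 267, 263 and 252 in NLS Mut. All 3 WT libraries were above all 6 others. The log2 fold change was 0.15 against vector (SE 0.06, 95% interval 0.03 to 0.26, adjusted p = 0.27) and 0.15 against NLS Mut (SE 0.06, 95% interval 0.04 to 0.27, adjusted p = 0.26), and neither passed the threshold. NLS Mut and vector differed by -0.00 (95% interval -0.12 to 0.11).

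MBTPS2 (ENSG00000012174.12, chrX:21839636-21885424, plus strand) encodes the site-2 protease, which makes the second cut within the membrane. It had 79.0, 68.8 and 71.5 CPM in vector, 79.7, 75.6 and 82.2 in WT, and 81.0, 84.7 and 82.3 in NLS Mut. All NLS Mut libraries were above all vector libraries, and vector replicate 1 was the nearest to them. The log2 fold change was 0.18 in NLS Mut against vector (SE 0.07, 95% interval 0.03 to 0.33, adjusted p = 0.28) and 0.12 in WT against vector (SE 0.07, adjusted p = 0.57). The MBTPS2 transcript is the poorest in GC of the 10 (35.9%). With the correction for GC content and length its value in NLS Mut against vector was 0.09 (adjusted p = 0.61), and in WT against vector 0.03 (adjusted p = 0.91). Of its exonic bases 1093 are shared with YY2, which had 546 reads over the 9 libraries against 16131 for MBTPS2.

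CREB3 and CREB3L2 belong to the OASIS family, factors anchored in the ER membrane that are freed by the same proteases and act in secretion. CREB3 (ENSG00000107175.12, chr9:35732335-35737004, plus strand) had 40.7, 44.1 and 44.5 CPM in vector, 43.3, 41.5 and 43.8 in WT, and 43.1, 41.7 and 39.4 in NLS Mut. No group stood apart, and the log2 differences were -0.01, -0.06 and 0.05 in the 3 comparisons, with SEs of 0.08. CREB3 shares 61 exonic bases with TLN1 and 139 with GBA2 on the opposite strand, and the counts were made without strand. With the GC and length correction its values against vector turned from -0.01 to 0.12 and from -0.06 to 0.06. CREB3L2 (ENSG00000182158.16, chr7:137874979-138002067, minus strand) had 233, 244 and 224 CPM in vector, 259, 232 and 234 in WT, and 231, 244 and 233 in NLS Mut. The highest library was WT replicate 1, and the groups overlapped throughout. Its log2 differences were 0.05, 0.02 and 0.03, with SEs of 0.06.

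NFE2L2 (ENSG00000116044.16, chr2:177227595-177392697, minus strand) encodes NRF2, the factor of the antioxidant response, which PERK is known to phosphorylate and KEAP1 to hold for degradation. It had 125, 117 and 117 CPM in vector, 137, 121 and 132 in WT, and 139, 147 and 127 in NLS Mut. The NLS Mut libraries all lay above the vector libraries, by a narrow gap between 127 and 125, while WT overlapped with both. The log2 fold change in NLS Mut against vector was 0.20 (SE 0.07, 95% interval 0.06 to 0.34), the largest among the members against vector, with an adjusted p of 0.17. In WT against vector it was 0.11 (SE 0.07, adjusted p = 0.54). The GC and length correction left the first value at 0.19 (adjusted p = 0.085). Exons of NFE2L2 overlap by 54 bases with those of AGPS on the opposite strand, and by 1054 bases with an unnamed transcript on the same strand that had 747 reads over the 9 libraries against 26629 for NFE2L2.

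**Figure D3:**
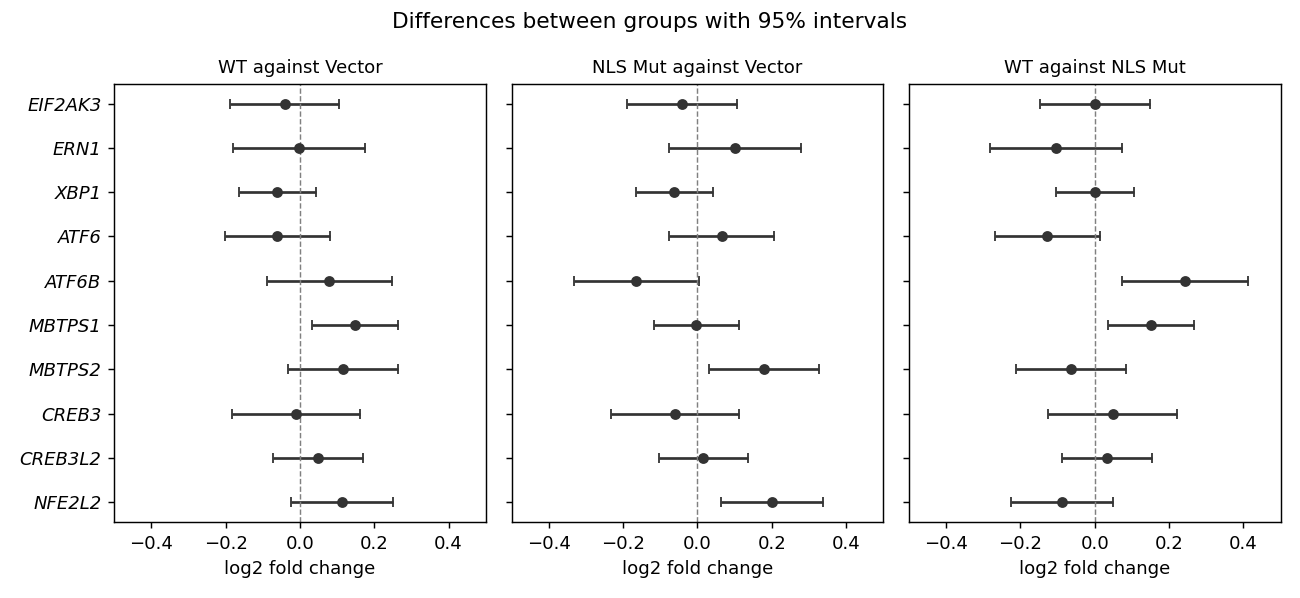
Log2 fold change (horizontal axes, first group minus second) of each of the 10 genes in the 3 comparisons, as points with 95% intervals from the fit over all 9 libraries; the dashed line marks 0. The intervals that leave out 0 are those of MBTPS1 in WT against vector, MBTPS2 and NFE2L2 in NLS Mut against vector, and ATF6B and MBTPS1 in WT against NLS Mut.

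Seen over the 10 members, the shifts were smaller on the log2 scale than those of all genes, but so were their SEs. The median absolute log2 fold change of the members was 0.06 in WT against vector, 0.06 in NLS Mut against vector and 0.08 between the plasmids, beside 0.14 for all genes tested in each comparison. Signed, the members' medians were 0.02, 0.01 and 0.00, and those of all genes -0.00, -0.00 and -0.01. The members were measured more precisely than most genes, with a median SE of 0.07 against 0.14. Both for the members and for all genes, the median absolute log2 fold change was close to the median SE. Taking the widest bounds of the 95% intervals over the members, a fall beyond 13.1% and a rise beyond 20.0% lay outside them in WT against vector. The corresponding bounds were a fall of 20.6% and a rise of 26.5% in NLS Mut against vector, and a fall of 17.8% and a rise of 33.1% in WT against NLS Mut. The groups did not overlap for 1 member (MBTPS1), 3 members (XBP1, MBTPS2 and NFE2L2) and 3 members (ATF6, ATF6B and MBTPS1) in the 3 comparisons, against 13.1%, 18.1% and 17.7% of all genes. With 3 libraries against 3, an exact permutation test of a single gene cannot go below p = 0.10.

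Single libraries mattered for 2 members. Without vector replicate 1, MBTPS2 was called at 0.23 (adjusted p = 0.049) and NFE2L2 at 0.23 (adjusted p = 0.037) in NLS Mut against vector, and the calls over all genes rose from 148 to 1002. Over the fits without 1 library, the MBTPS2 value ran from 0.13 to 0.23 and the NFE2L2 value from 0.14 to 0.25. In the other 8 of these fits neither was called, and no fit without 1 library called a member in the other 2 comparisons.

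**Figure D4:**
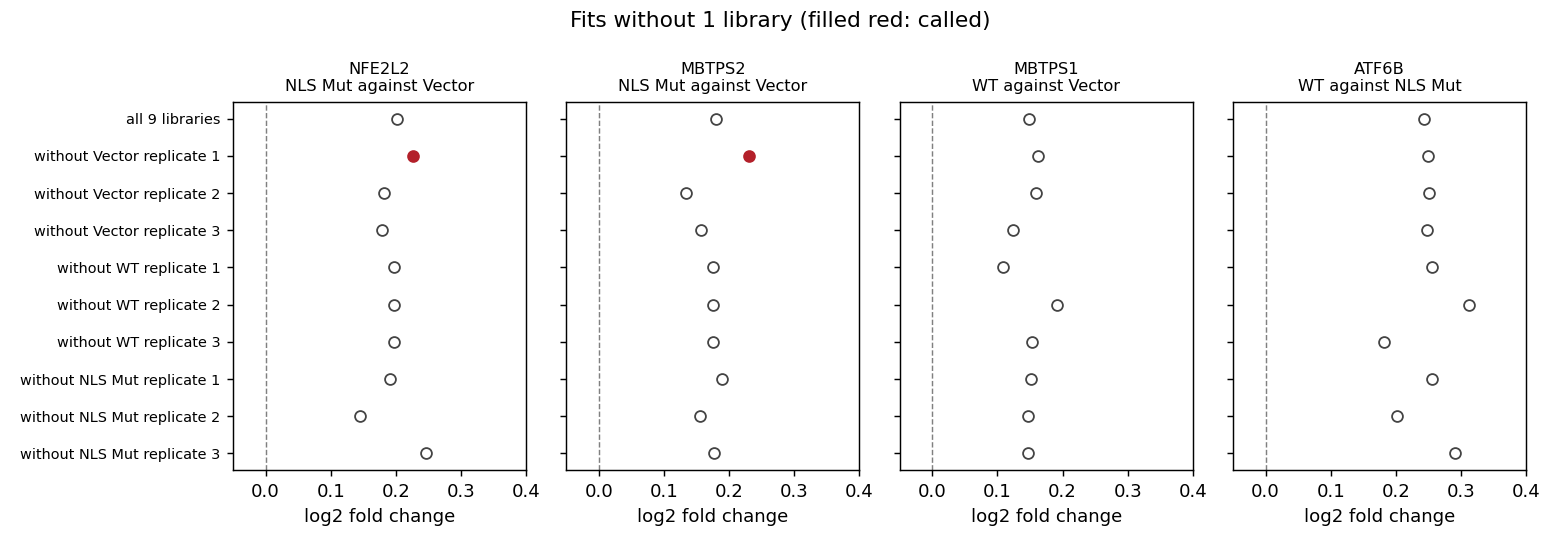
Log2 fold change (horizontal axes) of NFE2L2 and MBTPS2 in NLS Mut against vector, MBTPS1 in WT against vector and ATF6B in WT against NLS Mut, with all 9 libraries and without each library in turn; filled red points are called at the adjusted p threshold of 0.05 and open points are not. All values stay above 0, and the only calls are those of NFE2L2 and MBTPS2 without vector replicate 1.

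The promoters of the members were searched for the elements that UPR factors bind, in the RefSeq windows from 250 bases before to 50 bases after each annotated start (GRCh38.p14, 13 windows for the 10 genes, both strands). The ER stress response element (ERSE, CCAAT and CCACG with 9 bases between them), read by ATF6 and XBP1 together with NF-Y, was found in XBP1 alone of the members, and in 27 of 35116 promoters in all (0.0769%). It is shown with its fixed letters in capitals, beside an ERSE of the HSPA5 promoter. The call of HSPA5 cannot be read as activity of its promoter, since its counts include transcripts of the plasmids.
XBP1, chr22:28800603-28800621, minus strand, positions -52 to -34 from the start: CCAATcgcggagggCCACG
HSPA5, chr9:125241391-125241409, minus strand, positions -66 to -48: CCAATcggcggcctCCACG
The ERSE-II (ATTGG and CCACG with 1 base between them), the UPR element (TGACGTGG) and the C/EBP-ATF element (TGATGNAAT) had no match in the members' windows. CREB3L2 held the cAMP response element TGACGTCA (chr7:138002258-138002265), as did 1.85% of all promoters, and ATF6B held CACGTG (chr6:32128343-32128348), as did 7.26%. ERN1 held the antioxidant response element, TGACNNNGC, which NRF2 binds, at 2 places (13.3% of all promoters hold it).
ERN1, chr17:64130133-64130141, plus strand: TGACtagGC
ERN1, chr17:64130107-64130115, plus strand: TGACcgaGC
The E-box CANNTG was found in 8 of the 13 windows, for 7 of the 10 members, beside 68.7% of all promoters. CACGTG is 1 form of the E-box, and the CCACG end of the ERSE and ERSE-II is the reverse complement of the end of the UPR element. A match of letters does not show binding.

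The other genes of the same pathways were read from 7 lists with 107 genes, all of which could be tested. The lists were drawn up with earlier results of these data known. In WT against vector 0 of 107 were called higher and 8 lower, beside 0.214% and 0.343% of all genes tested. In NLS Mut against vector the counts were 0 and 7, beside 0.295% and 0.499%, and in WT against NLS Mut they were 2 and 1, beside 0.300% and 0.204%. Nearly all of these calls were in the PERK and eIF2 list and among the ATF6 targets. The counts depended on the libraries, and among the fits without 1 library the totals against vector were highest without vector replicate 1. That fit also called the most genes over all genes. It called 1256 in WT against vector, 1002 in NLS Mut against vector and 388 in WT against NLS Mut, where all libraries gave 104, 148 and 94. The comparisons with vector share the vector libraries.

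The PERK and eIF2 list holds eIF2B subunits, the other eIF2 kinases and regulators of PERK beside stress-induced genes, which all eIF2 kinases can induce. In WT against vector 4 of its 19 genes fell and 0 rose, and without vector replicate 1 the counts were 6 and 1. ATF3, a stress-induced repressor, fell by 0.83 on the log2 scale (SE 0.13, adjusted p = 7.9e-06). It had 38.9, 43.1 and 42.2 CPM in vector, 22.2, 24.3 and 23.2 in WT, and 34.1, 38.0 and 37.4 in NLS Mut. The WT libraries stood below all others, and ATF3 was also called lower in WT than in NLS Mut (-0.65, adjusted p = 0.00035). DDIT3, the factor CHOP that acts in cell death under ER stress, fell by 0.63 (adjusted p = 0.00033), and PPP1R15A, GADD34, which guides the phosphatase of eIF2α, fell by 0.55 (adjusted p = 0.0010). TRIB3, a pseudokinase induced by CHOP, fell by 0.27 (adjusted p = 0.032), a call that held only without vector replicate 1, WT replicate 2 or NLS Mut replicate 3 among the 9 fits without 1 library and was lost with only the 2 groups compared (adjusted p = 0.095) and with the GC and length correction (-0.13, adjusted p = 0.29). The other 3 calls held in 9 of 9 such fits. In NLS Mut against vector 0 of the 19 were called by edgeR and 1 by DESeq2 (higher). In that comparison 6 of the 19 had an unadjusted p under 0.05 in edgeR, beside 12.2% of all genes. Without vector replicate 1 that comparison gave 1 higher and 2 lower. In WT against NLS Mut ATF3 was the 1 call, and the count was 3 lower by DESeq2, without a filter, with only the 2 groups compared, with the GC and length correction, and without vector replicate 1 or WT replicate 2. The list's median log2 fold change was -0.09, 0.01 and -0.08 in the 3 comparisons.

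Among the targets of ATF6, 3 of 10 fell in WT against vector and 6 of 10 in NLS Mut against vector, and 0 rose. All 10 had a log2 fold change below 0 in both, with medians of -0.18 and -0.29. In WT against vector the called genes were SDF2L1 (-0.46, adjusted p = 0.038), a cofactor of ER chaperones, HERPUD1 (-0.27, adjusted p = 0.016), which acts in ER-associated degradation, and HYOU1 (-0.23, adjusted p = 0.0496), a large ER chaperone. In NLS Mut against vector they were PDIA4 (-0.41, adjusted p = 9.1e-06), a disulfide isomerase, CRELD2 (-0.35, adjusted p = 0.018), HYOU1 (-0.33, adjusted p = 0.0015), MANF (-0.30, adjusted p = 0.028), a secreted ER stress protein, HSP90B1 (-0.28, adjusted p = 0.00027), the chaperone GRP94, and CALR (-0.23, adjusted p = 0.018), the lectin chaperone calreticulin. PDIA4 had 2449, 2809 and 2838 CPM in vector, 2323, 2460 and 2489 in WT, and 1992, 2066 and 2033 in NLS Mut. HSP90B1 had 2461, 2419 and 2430 CPM in vector, 2441, 2306 and 2480 in WT, and 1968, 2070 and 1968 in NLS Mut. The NLS Mut libraries were the lowest for both genes, and both were called higher in WT than in NLS Mut, HSP90B1 by 0.27 (adjusted p = 0.00057) and PDIA4 by 0.26 (adjusted p = 0.0057).

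For these ATF6 targets vector replicate 1 stood nearer to the plasmid libraries. It was the lowest vector library for 8 of the 10 genes, as for SDF2L1 with 92.7 CPM against 144 and 151 in the other vector libraries and 90.4 to 97.0 in WT. Without vector replicate 1, where the calls over all genes rose to 1256 and 1002, the called counts rose to 7 and 9 of 10. Without vector replicate 2 or 3 they dropped to 0 of 10 in WT and 3 of 10 in NLS Mut, and without WT replicate 1 or 3 to 0 of 10 in WT against vector. Without any 1 of the NLS Mut libraries they were 1 of 10 in WT and 3 or 4 of 10 in NLS Mut. HSP90B1, PDIA4 and HYOU1 were called in NLS Mut against vector in 9 of 9 fits without 1 library. In that comparison the CALR call held in 5 of 9 such fits, and those of CRELD2 and MANF in 4 of 9 each. For WT against vector, HERPUD1 held in 5 of 9, SDF2L1 in 2 of 9 and HYOU1 in 1 of 9. The median GC content of the list was 52.4%. With the GC and length correction its median log2 fold change was -0.14 in WT and -0.20 in NLS Mut against vector, beside -0.18 and -0.29 without it. With this correction 2 and 6 of 10 were called, though no longer SDF2L1 (-0.18, adjusted p = 0.32) and HYOU1 (-0.17, adjusted p = 0.053) in WT and CALR in NLS Mut. With only the 2 groups compared 0 of 10 were called in WT against vector, and with library size alone or no filter 5 of 10. SDF2L1 was also not called by DESeq2 (adjusted p = 0.19), and HYOU1 in WT not with DESeq2 size factors (adjusted p = 0.055) or, narrowly, with the stricter filter.

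The remaining lists held few calls. The OASIS list held the family members CREB3L1, CREB3L3 and CREB3L4, and also CREBRF, CREBZF and HCFC1, which are not of that family. The lists of IRE1 partners and effectors, XBP1 targets, Golgi transport and other protease substrates, and OASIS had 14, 16, 17 and 6 genes. Of these, 0 were called in any comparison by edgeR with all libraries. At an unadjusted p under 0.05 the counts in the 3 comparisons were 1, 0 and 1 of 14 for IRE1 and 4, 4 and 2 of 16 for XBP1 targets. They were 6, 5 and 6 of 17 for the transport and protease substrate list and 1, 3 and 1 of 6 for OASIS. Over all genes the shares were 11.7%, 12.2% and 11.6%. The absence of adjusted calls did not hold without vector replicate 1, a fit in which calls rose over all genes and not in these lists alone. Over all genes the calls went from 104 to 1256, from 148 to 1002 and from 94 to 388 in the 3 comparisons. In WT against vector that fit called 4 XBP1 targets lower, 3 transport and protease substrate genes higher and 2 lower, and 1 gene lower in each of the IRE1 and OASIS lists. In NLS Mut against vector it called 1 XBP1 target higher and 2 lower, and 3 transport and protease substrate genes higher and 1 lower. In WT against NLS Mut it called 1 XBP1 target higher, 1 lower and 1 gene of the OASIS list lower. DESeq2 called 2 XBP1 targets lower in WT against vector, and 1 XBP1 target and 1 transport gene lower in NLS Mut against vector. Between WT and NLS Mut, DESeq2 called 1 XBP1 target higher, 1 lower and 1 gene of the OASIS list lower. The other alternatives called at most 2 genes of any of these lists. Of 25 partners and targets of NRF2, MAFK, a small Maf protein that pairs with NRF2, was the only call with all libraries. Without vector replicate 1 the NRF2 list had 1 higher and 5 lower in WT against vector, 2 lower in NLS Mut against vector and 2 lower in WT against NLS Mut, and in WT against vector DESeq2 called 2 lower and the fit without a filter 3. MAFK had 59.5, 64.1 and 70.9 CPM in vector, 41.8, 51.1 and 45.9 in WT, and 51.0, 45.1 and 51.5 in NLS Mut. It fell by 0.49 in WT against vector (adjusted p = 0.0063) and by 0.40 in NLS Mut against vector (adjusted p = 0.023), calls that held in 6 of 9 (not without vector replicate 3 or WT replicate 1 or 3) and 4 of 9 (not without vector replicate 2 or 3 or any NLS Mut library) of the fits without 1 library. The second was also lost with the GC and length correction (-0.24, adjusted p = 0.082). The medians of the NRF2 list were -0.02, 0.00 and -0.05.

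**Figure D5:**
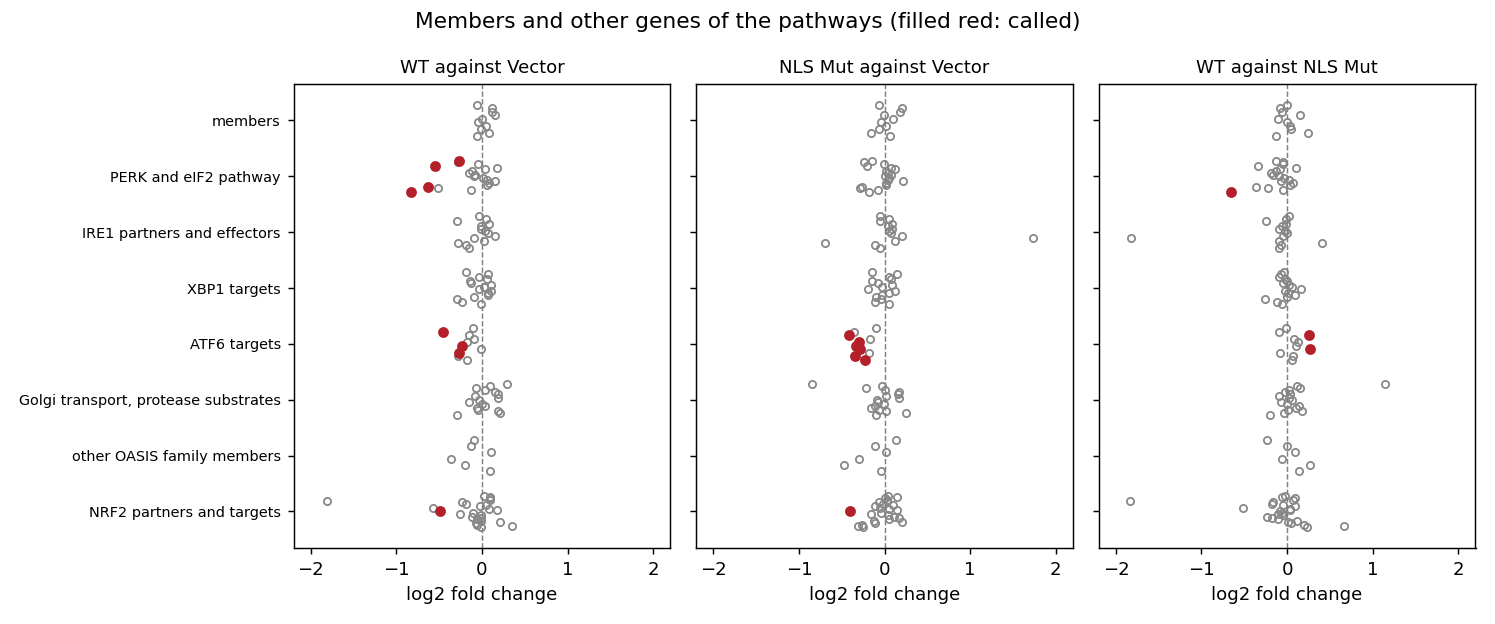
Log2 fold change (horizontal axes) of the 10 members and of the 107 genes of the 7 pathway lists (rows) in the 3 comparisons, with 1 point per gene; filled red points are called at an adjusted p of 0.05. The members lie near 0 with none called, the PERK and eIF2 list has its 4 calls in WT against vector, and the ATF6 targets have 3 and 6 calls below 0 against vector.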

How the data were processed

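The authors deposited read counts per gene for 9 RNA-Seq libraries of H1975 cells, raw and in the layout of STAR. The submitters' processing notes name STAR 2.7.9a, DESeq2 1.36.0 and GRCh38.p14, and the annotation release is not given in the sources used here. The column without strand was used, since 50.6% to 51.9% of reads lay on the forward strand. Summary lines that name no gene (27.6% to 30.7% of reads) were left out. Symbols were matched for 61399 of 61544 Ensembl identifiers. Coordinates, exonic length and GC content came from GENCODE release 29 (GRCh38), and promoters from RefSeq.

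Counts were filtered (filterByExpr), normalized by TMM and fitted in 1 model over the 9 libraries with edgeR 4.0.16 in R 4.3.3, and tested on simulated data first. SEs are the absolute log2 fold change over the square root of F. Replicates differed by more than sampling noise, the chi-square over genes being 3.50 to 11.3 times its degrees of freedom. Alternatives were DESeq2 1.42.0, other scalings and filters, both strands summed, 2 groups only, a replicate block, a GC and length correction (loess, span 0.3, for 18187 of 18653 genes), and leaving out each library.

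The members and lists were chosen with earlier results of these data known. Named were all members, HSPA5 and up to 4 called genes of each list and comparison by absolute log2 fold change. HSP90B1 and CALR against vector were named after their values were seen.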

Additional observations from a re-analysis of the deposited data

Results flagged for a closer look

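Of the genes named, 3 differed between the WT and NLS Mut groups by the test of that difference. ATF3 was lower in WT by -0.65 on the log2 scale, while HSP90B1 was higher by 0.27 and PDIA4 by 0.26. The HSP90B1 and ATF3 calls held in 9 of 9 fits without 1 library and the PDIA4 call in 7 of 9, missing without WT replicate 3 or NLS Mut replicate 1. No member of the UPR set differed between these groups at the threshold. No explanation was tested.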

How the results depend on the processing

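Of 540 refitted member values (30 values under 18 alternatives), 508 kept their direction and their side of the threshold, 30 changed sign and 2 became called. The sign changes concerned 10 values whose size was at most 0.06, and the cause was not tested. ERN1 in WT against vector became 0.0022 by DESeq2, 0.0027 with DESeq2 size factors, 0.0018 with a stricter filter, 0.0036 with both strands summed and 0.0068 with the GC and length correction. This correction also turned CREB3 against vector to 0.12 in WT and 0.056 in NLS Mut, MBTPS1 in NLS Mut against vector to 0.033, and EIF2AK3 and CREB3L2 between the plasmids to -0.0080 and -0.0021. Library size alone gave -0.0069 for CREB3L2 in NLS Mut against vector, and -0.0036 for EIF2AK3 and -0.0039 for XBP1 between the plasmids. Without 1 library, WT against vector ran from -0.024 to 0.036 for ERN1, -0.10 to 0.010 for ATF6, -0.051 to 0.017 for CREB3 and -0.0018 to 0.086 for CREB3L2. NLS Mut against vector ran from -0.031 to 0.014 for MBTPS1 and -0.022 to 0.045 for CREB3L2, and WT against NLS Mut from -0.018 to 0.030 for EIF2AK3, -0.022 to 0.027 for XBP1 and -0.014 to 0.069 for CREB3L2.

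In the order WT against vector, NLS Mut against vector, WT against NLS Mut, leaving out 1 library gave 0 to 0, 0 to 2 and 0 to 0 called members and 19 to 1256, 33 to 1002 and 27 to 388 called genes, each time with the most calls without vector replicate 1. Over all genes the counts of 104, 148 and 94 became 248, 408 and 288 by DESeq2, 289, 240 and 225 without a filter, and 211, 287 and 397 with the GC and length correction. With only the groups compared, WT against vector gave 26 and WT against NLS Mut 315. Members called stayed at 0 in each of these.

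Groups share replicate numbers, but only 2 of 9 same-numbered pairs had deviations correlated over 0.1 (-0.03 to 0.29). Pairs of different numbers ran from -0.36 to 0.29. With the replicate block 232, 230 and 212 genes and 0 members were called. HSPA5 and the called list genes were refitted after the data were seen. The block moved the calls in WT against vector from 3 to 5 of the ATF6 targets and from 1 to 3 of the NRF2 list, and in WT against NLS Mut from 1 to 3 of the PERK and eIF2 list. The intervals given show the precision that 3 libraries a group allowed.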
